A study of Mus musculus with 32 samples.

Results

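The data described here are the 8 RNA sequencing libraries of bone marrow progenitor cells from CreER mice, out of 32 libraries in the series. They were chosen by their labels: 4 knockout libraries were set against 4 controls, and all genes that passed a filter on low counts were tested. The comparison and the gene lists used below were chosen with earlier results of these data known. The mice of both groups were C57BL/6 adults and carried the tamoxifen-activated RosaCreERT2 recombinase, so tamoxifen treatment and Cre were shared by both groups. Knockout mice were Hbo1fl/fl;CreER, with both copies of Hbo1 (gene symbol Kat7) deleted. Controls were Hbo1fl/+;CreER, with 1 copy deleted according to the sample titles, although the treatment protocol calls them wild type. The Rosa locus that drives this Cre is active in many tissues, and deletion outside the sorted cells was not measured. The sorting gate of the progenitors and the time between tamoxifen and collection are not given in the labels. Each library came from its own mouse, and each group held 3 females and 1 male. Other libraries of the series are used for comparison: progenitors of 8 other mice in which polyIC switched on Mx1Cre, also 4 Hbo1fl/fl against 4 Hbo1fl/+, and LSK cells (the fraction sorted for Sca-1 and Kit without lineage markers, which holds the stem cells) sorted from the same 8 CreER mice.

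KAT7, also called HBO1, is a histone acetyltransferase of the MYST family. It works in a complex with the small subunits MEAF6 and ING4 or ING5 and with 1 scaffold from the BRPF or JADE families, which directs it to different histone tails. The enzyme is known for roles at replication origins and at the start regions of active genes, and in leukaemia for upkeep of HOXA expression. Progenitors of the bone marrow are short-lived dividing cells that are already set on the granulocyte, monocyte, erythroid or megakaryocyte paths.

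Total counts of the 8 libraries ran from 8779171 to 13501042, and 13692 of 27179 genes were tested. Genes of the X-inactivation centre and the Y chromosome matched the labelled sex in 8 of 8 of these libraries, but in only 6 of 8 LSK libraries of the same mice (the libraries labelled LSK CreER knockout 2 and 3 did not match). Genes of myeloid progenitors such as Kit (357 CPM on average in controls and 337 in knockouts) and Mpo (10600 and 9990 CPM) were abundant, as were those of erythroid progenitors (summed level of 4 genes 749 to 1140 CPM in controls and 726 to 1150 in knockouts). Ly6a, the gene of the stem cell sort marker Sca-1, was low at 5.01 and 5.05 CPM. Levels are given as CPM, counts scaled to library size with TMM factors for library composition. Knockout library 3 stood apart in its summed mature neutrophil markers, which reached 1220 CPM against 106 to 307 CPM in controls.

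Kat7 itself (Entrez 217127, chr11:95271853-95310246, build mm10) was nearly absent from the knockout libraries. The 4 controls held 75.6, 67.1, 66.5 and 69.1 CPM, and the 4 knockouts 0.212, 0, 0.941 and 0.6 CPM, from 3, 0, 12 and 8 counts. The groups did not overlap, and the knockout mean was 0.63% of the control mean, a log2 fold change of -7.24 ± 0.40 (SE, edgeR adjusted p = 6.42e-08). By the titles, this compares no copy with 1 copy, not with 2. The other 9 subunits of the complex were measured, and 0 of 9 passed the test. Their estimates ran from -0.08 for Meaf6 to 0.38 for the scaffold gene Jade3. Among the scaffolds, Jade2 had 0.31 ± 0.20 (log2, SE), Brpf3 0.37 ± 0.28, Brd1 0.21 ± 0.11, Jade1 0.11 ± 0.13 and Brpf1 0.04 ± 0.18, and the small subunits Ing4 and Ing5 had 0.03 ± 0.15 and 0.08 ± 0.11. None of these 9 genes separated the groups.

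Loss of Kat7 was accompanied by a small set of called genes in which falls outnumbered rises. Fitted with all 16 progenitor libraries (edgeR quasi-likelihood test, Benjamini-Hochberg adjusted p under 0.05), 23 of 13692 genes were called, 0.168%. Of these, 18 were lower in knockouts (0.131%) and 5 higher (0.0365%). At an unadjusted p under 0.05 there were 704 lower genes (5.14%) and 367 higher (2.68%). In all 23 called genes the 4 knockout and 4 control values did not overlap, which was so for 704 lower genes (5.14%) and 601 higher genes (4.39%) of all tested. Against a fold of 1.5 only Kat7 and Mid1 were called.

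The number of called genes differed with the libraries fitted. The 8 CreER progenitor libraries varied less among themselves (biological coefficient of variation 0.168) than the 8 Mx1Cre ones (0.308) that share the spread estimate in the fit of 16. Fitted alone, the 8 CreER libraries gave 158 called genes of 13228, 111 lower (0.839%) and 47 higher (0.355%), and fitted with all 32 libraries they gave 212. All 23 genes were called in both of these fits. Leaving out Mx1Cre control 1 alone gave 78 calls, and leaving out Mx1Cre control 1 and knockout 4 gave 150. Leaving out 1 CreER library at a time gave 7 to 27 calls, with 10 without control 1, 7 without control 3, 11 without knockout 2, 7 without knockout 3, 9 without knockout 4 and 15 without control 2. Kat7, Adam15, Ccr2, Gpr132, Ica1, Mid1 and Ppic stayed called each time 1 CreER library was left out, and Nebl and Ighg2b were lost each time. Of those 8 fits, Mdfi was called in 6, Scarf1 in 4, Bhlha15, Tie1 and the unnamed gene model 100861837 in 3, Hoxa9, Ltbp3, Gspt2 and Fkbp9 in 2, and Il11ra1, Aifm2, Arhgef40, Bex6 and Sdc2 in 1.

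**Figure D1:**
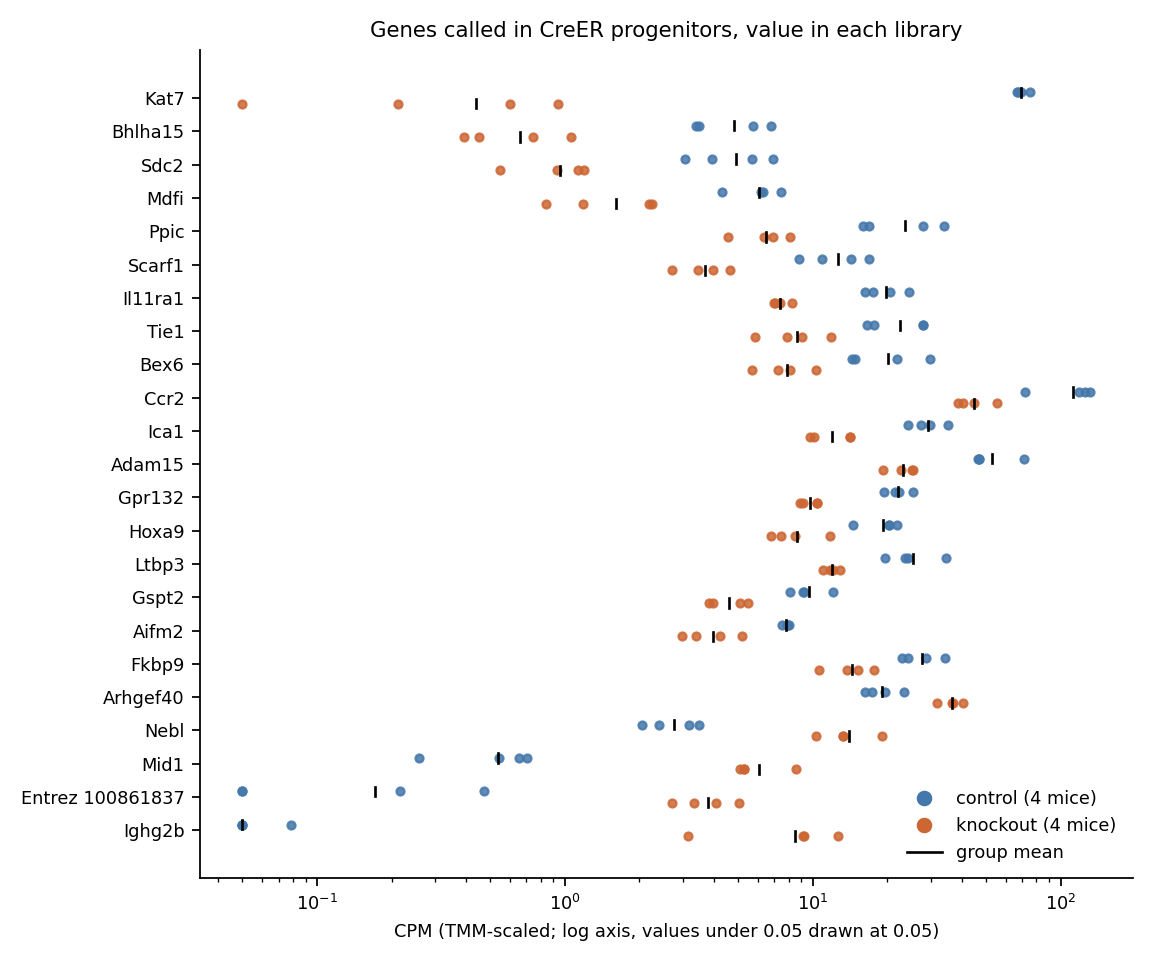
Level of each of the 23 called genes in the 8 CreER progenitor libraries (CPM on a log axis), with 1 point per mouse, controls blue and knockouts orange, and a bar at the group mean. Kat7 knockouts lie at 0 to 0.941 CPM against 66.5 to 75.6 in controls, and the groups do not overlap in any row.

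**Figure D2:**
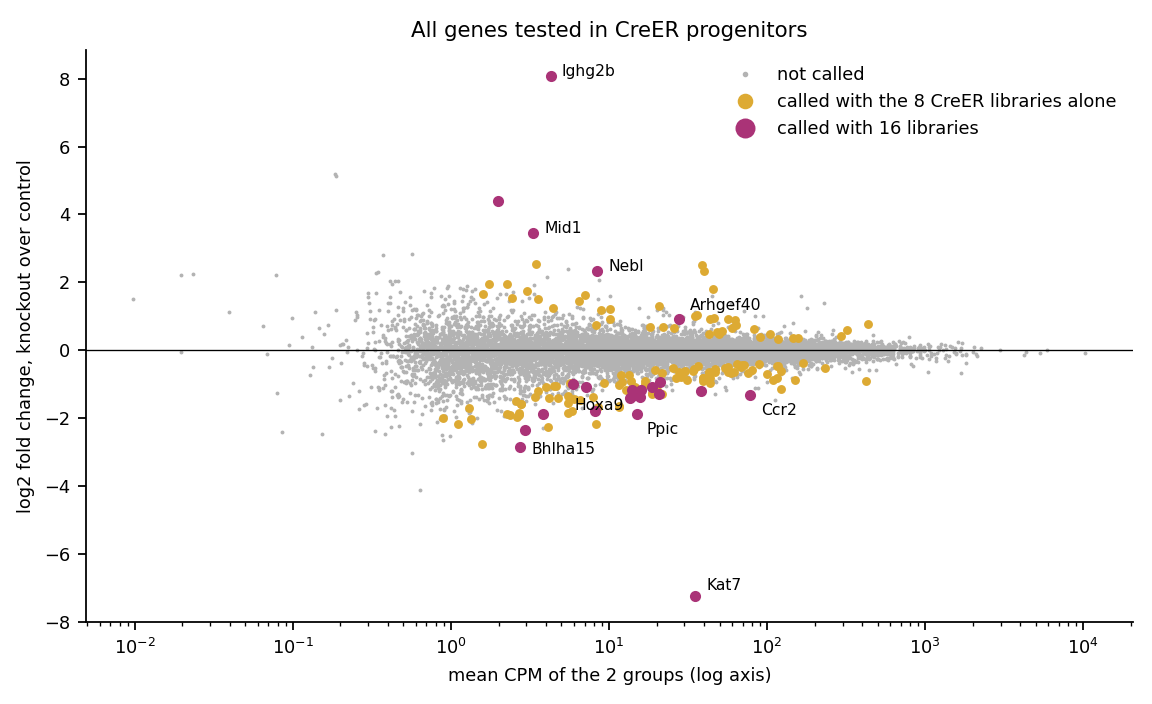
Log2 fold change of each of 13692 tested genes (knockout over control) against its mean level in CPM on a log axis. Purple points are the 23 genes called with 16 libraries and yellow points the further genes called only with the 8 CreER libraries, most of them below the line at 0.

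The genes that fell are ordered here by what each encodes, a sorting made by hand after the calls and not tested as a pattern. Among those for receptors and surface proteins, Ccr2, the chemokine receptor that lets monocytes leave the marrow (Entrez 12772, chr9:124101918-124109140), stood at 71.9, 126, 132 and 119 CPM in controls and at 44.7, 38.6, 55.5 and 40.5 in knockouts. Every knockout lay below the lowest control, control 1, and the fall was -1.32 ± 0.19 (log2, SE, adjusted p = 0.00481). Gpr132, a G protein-coupled receptor of leukocytes, held 25.3, 22.3, 21.5 and 19.4 CPM in controls against 10.4, 8.93, 10.4 and 9.16. No knockout reached the lowest control, control 4, and the fall was -1.18 ± 0.17 (adjusted p = 0.00481). Il11ra1, which encodes the interleukin-11 receptor chain, went from 17.5, 16.3, 24.5 and 20.5 CPM to 8.27, 7.35, 7.05 and 6.98 (-1.41 ± 0.25, adjusted p = 0.0315). Tie1, an endothelial and stem cell receptor tyrosine kinase, went from 28, 16.5, 28 and 17.7 CPM to 11.9, 5.86, 9.09 and 7.88 (-1.37 ± 0.24, adjusted p = 0.0303). Summed markers of stroma and endothelium were low in all 8 libraries, 2.14 to 2.93 CPM in controls and 1.1 to 1.91 in knockouts, with 5 of 6 genes averaging under 1 CPM. This sum too was lower in every knockout than in every control, and the cell source of the Tie1 counts was not tested. The scavenger receptor gene Scarf1 and the heparan sulfate proteoglycan gene Sdc2 fell by 1.77 ± 0.27 and 2.35 ± 0.42 (log2, adjusted p = 0.0123 and 0.0369). Scarf1 stood at 8.78 to 16.8 CPM in controls and 2.7 to 4.65 in knockouts, and Sdc2 was low throughout, at 3.06 to 6.93 and 0.549 to 1.2 CPM. Adam15, a membrane metalloprotease, was the most abundant of the called genes after Ccr2 and Kat7, at 47.1, 46.6, 71.3 and 46.7 CPM in controls and 22.8, 19.3, 25.2 and 25.4 in knockouts. Control 3 was the high library, and the fall was -1.19 ± 0.17 (adjusted p = 0.00481).

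Regulators of transcription among the falls were Hoxa9, Bhlha15 and Mdfi. Hoxa9, the homeobox gene of stem and progenitor cells (Entrez 15405, chr6:52223097-52227370), held 21.9, 20.3, 20.3 and 14.6 CPM in controls and 11.7, 7.44, 6.82 and 8.48 in knockouts. The lowest control, control 4, was still above the highest knockout, and the fall was -1.16 ± 0.22 (log2, SE, adjusted p = 0.0402). Bhlha15, also called Mist1, a factor of secretory cells, had the largest fall after Kat7, from 6.76, 3.47, 5.73 and 3.37 CPM to 1.06, 0.744, 0.392 and 0.45 (-2.85 ± 0.45, adjusted p = 0.0147). Mdfi, an inhibitor of myogenic factors, went from 6.18, 6.3, 7.44 and 4.31 CPM to 2.19, 0.837, 1.18 and 2.25 (-1.89 ± 0.29, adjusted p = 0.0124). Both were expressed at low levels, and in both the knockouts were below every control.

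The remaining falls had various roles. Ppic, the secretory-pathway cyclophilin, went from 16 to 34 CPM in controls to 4.56 to 8.13 in knockouts (-1.86 ± 0.25, adjusted p = 0.00481). Fkbp9, an endoplasmic reticulum prolyl isomerase, went from 23 to 34.1 CPM to 10.6 to 17.7 (-0.94 ± 0.17, adjusted p = 0.0394). Ica1, a protein of secretory vesicles, held 29.7, 24.3, 35.2 and 27.4 CPM in controls and 10.1, 9.77, 14.1 and 14.1 in knockouts (-1.28 ± 0.18, adjusted p = 0.00481). In each of Ppic, Fkbp9 and Ica1 the highest knockout lay below the lowest control. Ltbp3, a latent TGF-beta binding protein, fell by 1.09 ± 0.18 (log2, adjusted p = 0.0239), and Gspt2, an X-linked translation termination factor, by 1.07 ± 0.18 (adjusted p = 0.0268). Aifm2, the ferroptosis suppressor also called Fsp1, fell by 0.99 ± 0.19 (adjusted p = 0.0456). Its 4 controls lay within 7.49 to 7.99 CPM and its knockouts within 2.98 to 5.21. Bex6 fell by 1.36 ± 0.26 (adjusted p = 0.0456).

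The 5 genes that rose included 4 that were at or near 0 in controls or below 4 CPM. Nebl, which encodes the actin-binding nebulette, rose from 2.4, 3.47, 3.16 and 2.04 CPM to 13.3, 13.3, 19 and 10.3 (2.34 ± 0.43, adjusted p = 0.0394). Mid1, an X-linked microtubule-associated ubiquitin ligase, rose from 0.654, 0.543, 0.257 and 0.705 CPM to 5.3, 5.3, 5.09 and 8.56 (3.45 ± 0.48, adjusted p = 0.00481). In both genes each knockout lay well above each control. Arhgef40, which encodes a guanine nucleotide exchange factor, was the only one of them above 4 CPM in controls. It rose from 23.4, 16.3, 19.5 and 17.3 CPM to 40.6, 37, 31.7 and 36.6 (0.93 ± 0.16, adjusted p = 0.0268). Ighg2b, the constant region of an immunoglobulin heavy chain, had 1 count over the 4 controls and 431 over the knockouts, a ratio of 401 with a 95% exact counting interval of 71.6 to 15900 (adjusted p = 0.0402). Its 4 knockouts held 9.12, 9.21, 12.6 and 3.15 CPM. Summed B cell markers moved the other way, from 14.8 to 26.9 CPM in controls to 9.23 to 12.4 in knockouts, with 3 of 6 genes averaging under 1 CPM. Of these markers the one at a clear level was Cd79b, at 17.7 CPM on average in controls and 7.89 in knockouts. A gene model without a symbol (Entrez 100861837) had 8 counts in controls and 195 in knockouts, a ratio of 22.7 with an interval of 11.3 to 53.3 (adjusted p = 0.017). Mid1 spans the edge of the pseudoautosomal region on the mouse X chromosome, where repeats can share reads. Erdr1, another gene of that region, stood at 14.1, 18.3, 4.79 and 8.86 CPM in controls and 34.4, 48.5, 56 and 124 in knockouts, but did not pass the test with 16 libraries (2.52 ± 0.52, adjusted p = 0.0612).

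The fit of the 8 CreER libraries alone added further called genes. Of its 158 called genes, 157 had no overlap between the 4 controls and 4 knockouts. Of the 13692 genes tested with 16 libraries, 5.14% were separate and lower and 4.39% separate and higher. The call used the same 8 libraries, so the separation of called genes is no further evidence. Plxnb2, a semaphorin receptor, held 27.3, 35.7, 28.7 and 31.2 CPM in controls and 12.9, 10.4, 13.8 and 12.7 in knockouts. In this fit it fell by 1.29 ± 0.13 (log2, SE, adjusted p = 0.00252), against adjusted p = 0.0985 with 16 libraries. Npl, a sialic acid lyase, Emp3, a membrane protein, and Selplg, the P-selectin ligand, fell by 0.89 ± 0.12, 0.67 ± 0.10 and 0.60 ± 0.10 in this fit. Cd79b, a signalling chain of the B cell receptor, and Lat2, an adaptor of immune receptors, fell by 1.15 ± 0.19 and 1.15 ± 0.20. Cd93, a surface lectin of early progenitors, went from 168 to 261 CPM to 90.1 to 138 (-0.88 ± 0.17, adjusted p = 0.0359). Rises in this fit included Tfrc, the transferrin receptor, from 199, 260, 293 and 268 CPM to 354, 343, 423 and 417 (0.60 ± 0.12, adjusted p = 0.0377). Cd24a, an adhesion molecule of maturing blood cells, rose by 0.77 ± 0.14 and Podxl, a sialomucin, by 1.81 ± 0.34 (adjusted p = 0.0342 and 0.0359). Podxl was highest in knockout 3, at 136 CPM against 42.4 to 52.8 in the other knockouts. Bnip3l, a mitophagy receptor used in red cell maturation, rose by 0.48 ± 0.09. Orc2 and Ccne1, a replication origin subunit and a cyclin of S phase entry, rose by 0.36 ± 0.07 and 0.64 ± 0.13. None of these genes was called with 16 libraries.

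The 250 bases before a RefSeq transcript start are shown for 4 genes that the results turn on, so that their base composition can be compared (GRCm38.p6, 5′ to 3′ on the coding strand, with each CG dinucleotide in capitals). Hoxa9 (minus strand, chr6:52227371-52227620) and Ccr2 (plus strand, chr9:124101933-124102182) hold 3 and 1 CG, while Adam15 (minus strand, chr3:89350029-89350278) and the monocyte and dendritic cell factor Irf8 (plus strand, chr8:120736108-120736357) hold 18 and 29. The Ccr2 window lies within the gene span given above, which covers all its RefSeq transcripts and begins 5′ of the start used. The median over 10148 tested genes with such a window was 16, with the middle 50% of genes between 9 and 22.
Hoxa9: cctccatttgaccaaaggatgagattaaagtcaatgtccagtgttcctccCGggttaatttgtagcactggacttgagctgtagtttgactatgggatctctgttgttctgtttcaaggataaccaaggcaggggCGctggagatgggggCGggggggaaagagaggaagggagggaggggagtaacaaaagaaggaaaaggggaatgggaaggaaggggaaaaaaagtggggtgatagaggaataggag
Ccr2: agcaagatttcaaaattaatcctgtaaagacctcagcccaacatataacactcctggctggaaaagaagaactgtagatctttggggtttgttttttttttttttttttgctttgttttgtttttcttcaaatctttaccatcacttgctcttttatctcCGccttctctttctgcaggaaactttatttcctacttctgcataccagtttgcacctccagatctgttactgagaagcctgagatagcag
Adam15: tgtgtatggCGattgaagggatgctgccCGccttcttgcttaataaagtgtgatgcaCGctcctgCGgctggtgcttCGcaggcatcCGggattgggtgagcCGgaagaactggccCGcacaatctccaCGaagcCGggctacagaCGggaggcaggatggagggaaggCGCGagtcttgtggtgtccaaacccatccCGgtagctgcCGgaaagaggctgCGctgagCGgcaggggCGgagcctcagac
Irf8: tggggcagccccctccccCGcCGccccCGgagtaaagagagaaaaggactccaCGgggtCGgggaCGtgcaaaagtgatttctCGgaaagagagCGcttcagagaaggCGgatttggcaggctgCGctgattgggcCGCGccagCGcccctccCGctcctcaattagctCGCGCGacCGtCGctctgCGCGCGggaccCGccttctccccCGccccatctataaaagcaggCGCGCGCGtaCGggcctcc
Hoxa9, Ccr2 and Adam15 were called lower with 16 libraries, and Irf8 was not. Of the called falls shown, Hoxa9 and Ccr2 thus lay below the range of 9 to 22 CG, and Adam15 lay within it. A window was found for 14 of 18 lower genes (77.8%) and 3 of 5 higher ones, under the 80% needed, so a comparison of promoter composition over the called genes is void. The 18 lower genes lay on 14 chromosomes, 3 of them (Hoxa9, Ica1 and Fkbp9) on chromosome 6, which held 628 of the tested genes.

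Among the 43 gene lists, 0 or 1 member of each was called, and lists are described by counts and medians beside those of all tested genes, where 6979 of 13692 estimates were negative and the median log2 fold change was -0.005. The Hoxa genes had the lowest median. All 7 tested members were below 0, with a median of -0.94, and 1 of 7 was called. The level of the list per library overlapped between groups, with control 4 at -0.382 and knockout 3 at -0.262 (log2, against the control mean). Hoxa7, a neighbour of Hoxa9 in the cluster, held 10.5, 6.4, 9.83 and 7.37 CPM in controls and 4.52, 1.86, 4.78 and 5.25 in knockouts. The groups of Hoxa7 did not overlap, and the estimate of -1.05 ± 0.29 did not pass the test (adjusted p = 0.188). Hoxa10 and Hoxa3 had -1.79 ± 0.59 and -0.94 ± 0.42, at levels of 3.27 CPM or less. Hoxa4 and Hoxa6 were nearest to 0, at -0.14 ± 0.32 and -0.24 ± 0.79. The median of the list stayed between -1.12 and -0.58 under the alternatives tried, with -0.58 without control 1.

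Transcription factors of stem cells also lay mostly below 0, with 15 of 22 negative, a median of -0.26 (-0.17 without control 1) and 1 called (Hoxa9). Erg, an ETS factor of stem cells, held 39.8, 30.2, 35.3 and 29.2 CPM in controls and 23.5, 15.2, 17.6 and 20 in knockouts. Its groups were separate, and it was called with the 8 CreER libraries alone (-0.81 ± 0.15, adjusted p = 0.0359) but not with 16 (adjusted p = 0.346). Meis1, a HOX cofactor, and Gata2 had -0.87 ± 0.33 and -0.65 ± 0.32 and overlapping groups, and Lmo2, an adaptor of GATA factors, had -0.34 ± 0.12 with separate groups.

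Monocyte and macrophage genes lay mostly below 0. Of 30 tested members 20 were below 0, with a median of -0.36 and 1 called (Ccr2). Without control 3 the median was -0.16. At an unadjusted p under 0.05, 11 of 30 were lower and 1 higher, beside 5.14% and 2.68% of all genes. Irf8, the transcription factor of monocytes and dendritic cells, held 109, 165, 252 and 147 CPM in controls and 64.1, 74.9, 96.2 and 68.8 in knockouts. Its groups did not overlap, and it missed the threshold with 16 libraries (-1.15 ± 0.23, adjusted p = 0.0582) while passing it with the 8 CreER libraries alone (adjusted p = 0.036). Csf1r, the receptor for the macrophage growth factor, held 37.7, 59.5, 91.7 and 54.9 CPM against 29.3, 31.6, 37 and 32.5 (-0.90 ± 0.26, adjusted p = 0.203). Ms4a6c, a membrane protein of monocytes, held 65.1, 69.3, 118 and 75.1 CPM against 49.9, 43.4, 55.1 and 41.6 (-0.79 ± 0.20, adjusted p = 0.139). Control 3 was the highest library for all 4 of these genes. Klf4, a monocyte factor, and Ly86, a partner of a Toll-like receptor, had -1.19 ± 0.37 and -1.01 ± 0.34 with overlapping groups. The summed level of 5 markers of mature monocytes and macrophages was 62.7 to 126 CPM in controls and 53.7 to 66.9 in knockouts. None of the 5 averaged under 1 CPM. Csf1r, given above, was the most abundant of them (mean 60.9 CPM in controls and 32.6 in knockouts) and the only one with separate groups. Mean levels were 18.2 and 16.4 CPM for Cx3cr1, 3.47 and 2.5 for Cd14, 3.32 and 3.31 for Fcgr4, and 3.05 and 3.72 for Adgre1. The part of mature cells in these values was not tested. In such bulk libraries, fewer cells of a type and less RNA per cell cannot be told apart.

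No granule gene of neutrophils was called, and the level of both granule lists overlapped between groups. The primary granule genes, made in early promyelocytes, had 11 of 13 members below 0 and a median of -0.30, with -0.05 without control 3, -0.13 without knockout 1 and -0.49 without knockout 3. Srgn, the proteoglycan of granules, held 578, 478, 769 and 531 CPM in controls and 389, 402, 415 and 370 in knockouts (-0.58 ± 0.19, adjusted p = 0.311), without overlap. The elastase gene Elane held 1480, 1670, 3350 and 1760 CPM in controls and 668, 1070, 2280 and 1170 in knockouts, with overlap. Secondary and tertiary granule genes, made later, had 16 of 18 members above 0 and a median of 0.72. Camp, Ngp and S100a8 had 1.60 ± 0.91, 1.60 ± 0.90 and 1.25 ± 0.65. This rested largely on knockout 3, where Ngp was at 692 CPM and Camp at 194, against 53.9 to 141 and 11.8 to 36.5 in the other knockouts. The median of the list was 0.14 without knockout 3, 1.08 without control 2, 0.34 with sex as a term and 0.31 with the replicate number as a block.

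Erythroid and heme genes lay above 0. All 17 heme synthesis genes were positive, with a median of 0.26, and their list was the only one of 43 whose median level per library separated the groups, at -0.101 to 0.098 (log2, against the control mean) in controls and 0.138 to 0.438 in knockouts. Of all single genes tested, 4.39% separated with knockouts higher and 5.14% with knockouts lower. Separation of 1 list of 43 is no more than that share. None of the 17 was called. Flvcr1, the heme exporter, held 62.5, 64, 54.7 and 60.2 CPM in controls and 80.3, 72.5, 79.5 and 77.5 in knockouts (0.36 ± 0.13, adjusted p = 0.377). Fech, which inserts iron to form heme, held 66.7, 79.9, 75.2 and 79.9 CPM against 82.4, 111, 99.9 and 113 (0.43 ± 0.18, adjusted p = 0.527). Both genes were separate between groups. Of the 29 erythroid genes 24 were positive, with a median of 0.51 and 0 called. Tfrc, described above, is on this list. Summed late erythroid markers were 14.6 to 24.5 CPM in controls and 20.9 to 35 in knockouts, and those of erythroid progenitors overlapped as given above. Genes of G2 and M phase were positive in 49 of 53, with a median of 0.21, overlapping groups and 0 called. The median ran from 0.10 without control 1 to 0.32 without knockout 1, with 0.11 without knockout 3, 0.13 without knockout 4 and 0.32 without control 4. Among them the checkpoint kinase gene Bub1 had 0.48 ± 0.15 and the cyclin gene Ccna2 0.33 ± 0.13.

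Genes of antigen presentation and of the interferon response lay below 0. Of 17 MHC class I genes 16 were negative (median -0.36), of 10 MHC class II genes 9 (median -0.62), and of 47 interferon-stimulated genes 46 (median -0.32), with 0 called in each list. The class II median was -0.24 without control 2, and knockout 1 lay above every control in the level of that list (0.236 against -0.265 to 0.213, log2). The interferon median was -0.19 without control 1 and -0.19 without knockout 3. H2-Q6, a class I molecule, held 169, 139, 118 and 158 CPM in controls and 108, 87, 67.4 and 72.5 in knockouts. H2-DMa, which loads peptides on class II molecules, held 53.9, 41.8, 59.3 and 46.9 CPM against 37.1, 24.6, 24 and 28.2. Both were separate between groups and were called with the 8 CreER libraries alone (-0.80 ± 0.16 and -0.82 ± 0.16, adjusted p = 0.0393 and 0.0359), as was the interferon-induced gene Ifi27 (-0.65 ± 0.13, adjusted p = 0.0377). H2 class I genes are close copies of each other, so counts may be shared among them. The antiviral GTPase gene Mx1 held 76.3, 26.7, 70.2 and 47.7 CPM in controls and 34.4, 28.6, 24.4 and 27.9 in knockouts, so that control 2 lay among the knockouts. The list level of the interferon-stimulated genes overlapped in the same way, with control 2 at -0.425. Megakaryocyte and platelet genes were negative in 18 of 22 (median -0.35, 0 called), with -0.16 without control 1 and -0.56 without knockout 1. The chemokine gene Pf4 of platelets held 16.5, 11.3, 9.83 and 18.2 CPM against 8.77, 6.05, 6.11 and 9.16 (-0.89 ± 0.35, adjusted p = 0.496). Gng11, a G protein subunit of platelets, had -1.37 ± 0.31 (adjusted p = 0.0954). Immediate early genes, which respond to cell handling, were negative in 21 of 23 (median -0.45, 0 called, with -0.28 without control 1, -0.72 without control 3 and -0.21 without control 4), among them Nr4a1 (-1.14 ± 0.37, adjusted p = 0.313).

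**Figure D3:**
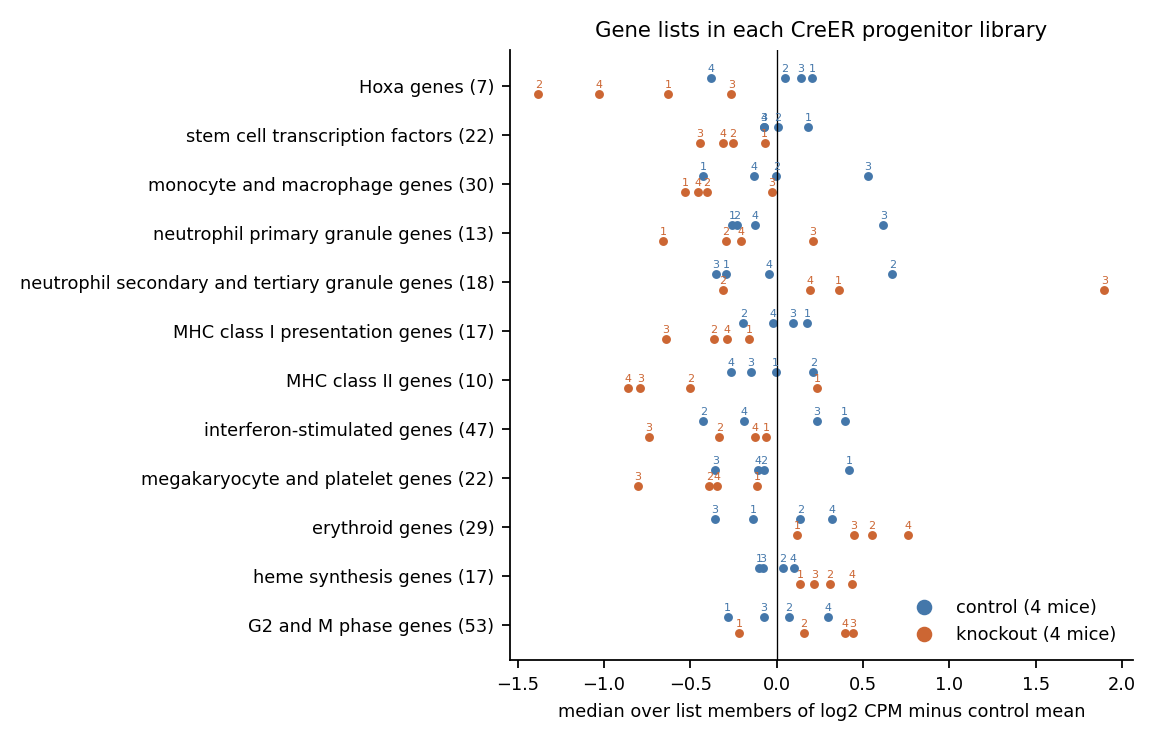
Median over the members of 12 gene lists of log2 CPM minus the control mean, for each CreER progenitor library (numbers give the replicate, list sizes stand in parentheses). Heme synthesis genes separate the groups, and knockout 3 is far to the right in neutrophil secondary and tertiary granule genes.

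In progenitors of the Mx1Cre mice, which share no mouse with the CreER ones, most of these genes were called too. There 833 of 13692 genes were called (6.08%). Of the 23 genes called with CreER, 21 were also called with Mx1Cre (91.3% of the CreER list and 2.52% of the Mx1Cre list), 20 of them with the same sign. Both calls used the spread estimate of the same fit of 16 libraries, so the lists are not independent of each other. Of the 158 genes called with the 8 CreER libraries alone, 107 were called with Mx1Cre (67.7%, or 12.8% of the Mx1Cre list), 106 with the same sign. The Mx1Cre calls here still used the spread of all 16 libraries. The estimate was farther from 0 with Mx1Cre in 16 of 23. The difference between the Cre lines was called for 41 of 13692 genes (0.299%), among them Ppic, Ica1, Gspt2, Fkbp9 and Ighg2b of the 23. Ica1 fell by 4.41 ± 0.21 (log2, SE) with Mx1Cre and Gspt2 by 4.31 ± 0.22, so that the differences were -3.13 (adjusted p = 1.28e-05) and -3.24 (adjusted p = 1.28e-05). Ppic and Fkbp9 differed by -2.75 and -2.16 (adjusted p = 0.00284 and 0.00051). Ccr2 moved by nearly the same amount in both, -1.38 ± 0.19 with Mx1Cre, a difference of -0.05 that was not called. Ighg2b had -6.07 ± 1.63 with Mx1Cre (adjusted p = 0.0348 there, and 0.0068 for the difference). Its Mx1Cre controls varied widely, at 2.21 ± 3.68 CPM (SD, n = 4), and LSK controls of the CreER mice ran from 5.84 to 71.2 CPM.

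Genes with a called difference also included some that did not pass the test with CreER. Map7d3, an X-linked microtubule-associated protein, had -1.07 ± 0.22 with CreER (adjusted p = 0.0884) and averaged 7 CPM in Mx1Cre controls and 0 CPM in all Mx1Cre knockouts, so its fitted size there is no bound. Zfp970, a zinc finger gene, had -0.95 ± 0.21 with CreER (adjusted p = 0.0884) and -5.68 ± 0.30 with Mx1Cre. The collagen gene Col4a1 rose with Mx1Cre (3.76 ± 0.39) and had 0.26 ± 0.38 with CreER (adjusted p = 0.0068 for the difference). Robo3, an axon guidance receptor, and Tuba8, a tubulin, had differences of 3.90 and 1.35 (adjusted p = 0.0149 and 0.0267), with CreER estimates of -0.93 ± 0.35 and -0.48 ± 0.18. Pf4 and Gng11 differed by 2.73 and -2.60, since Pf4 was 1.84 higher with Mx1Cre knockout and Gng11 3.98 lower (log2). Cre line, agent, mice and time cannot be told apart in these differences.

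LSK cells of the same CreER mice are set beside the progenitors, and since the mice are shared, agreement between both is no independent support. With 445 of 14102 genes called in LSK cells (3.16%, or 33 genes without LSK CreER knockouts 2 and 3), 15 of the 23 progenitor genes were called there and 22 had the same sign. Hoxa9 had -0.87 ± 0.13 (log2, SE) in LSK cells beside -1.16 ± 0.22 in progenitors, Adam15 -0.83 ± 0.10 beside -1.19 ± 0.17, and Nebl 3.38 ± 0.38 beside 2.34 ± 0.43. Ccr2 was at 0.02 ± 0.17 in LSK cells beside -1.32 ± 0.19, and Mdfi at -0.47 ± 0.21 beside -1.89 ± 0.29.

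**Figure D4:**
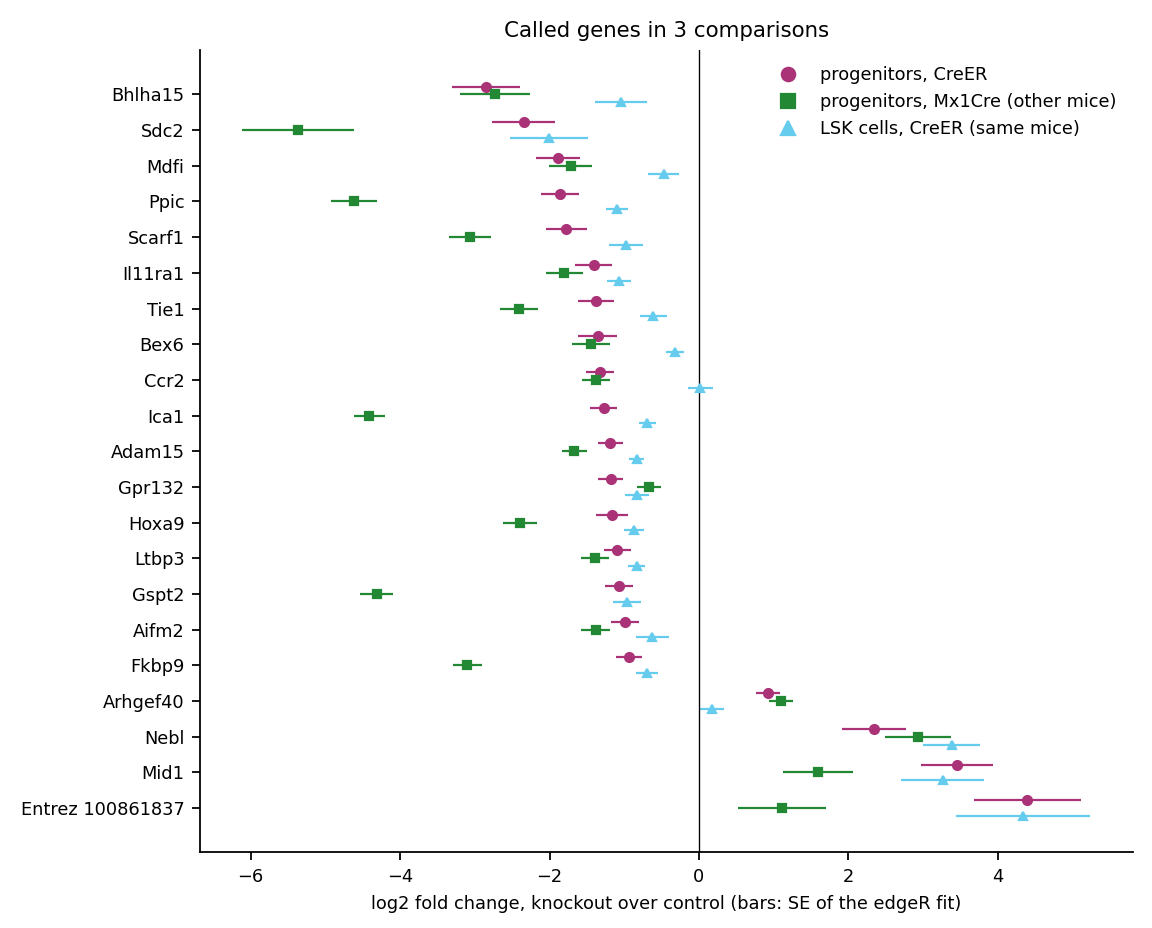
Log2 fold change with SE for 21 of the 23 called genes (Kat7 and Ighg2b left out for scale) in progenitors of CreER mice, progenitors of Mx1Cre mice and LSK cells of the CreER mice. Ica1, Gspt2, Ppic and Fkbp9 are farther from 0 with Mx1Cre, and Ccr2 lies at 0.02 in LSK cells.

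The difference between both cell populations was tested directly, with all 32 libraries. Without a mouse term 1 of 14459 genes was called (0.00692%), Tmem119, a membrane protein, with 1.36 (log2, LSK minus progenitors, adjusted p = 0.0379), from -0.67 ± 0.17 in progenitors and 0.71 in LSK cells. Each mouse gave a library of both populations, and with mouse as a block 11 genes were called (0.0761%), all of them higher in LSK cells relative to progenitors. These 11 were Ccr2, Csf1r, Irf8, Ms4a6c, F13a1, Tmem119, Evl, Ifi209, Mdfi, Mgl2 and Pld4, and 5 of them (Ccr2, Csf1r, Irf8, Ms4a6c and F13a1) are on the monocyte and macrophage list. Naming all 11 goes beyond the rule for named genes and was decided after their values were seen. Irf8 differed by 1.33 ± 0.21 in the blocked fit (adjusted p = 0.032), Csf1r by 1.39 ± 0.23 (adjusted p = 0.032), Ccr2 by 1.30 ± 0.23 (adjusted p = 0.0356) and Ms4a6c by 1.16 ± 0.21 (adjusted p = 0.0356). F13a1, the coagulation factor subunit made by monocytes, differed by 1.34 ± 0.23 (adjusted p = 0.0346), with 1.19 in LSK cells and -0.19 in progenitors. All 5 of these monocyte genes had estimates below 0 in progenitors and above 0 in LSK cells. They were picked by the called difference, which favours opposite signs. Of the 5, only Ccr2 was called in progenitors and only F13a1 in LSK cells (edgeR adjusted p = 0.018), so opposite movement of single genes is not shown. Over the list, all 30 members had a higher effect in LSK cells than in progenitors, with a median difference of 1.12, beside 7395 of 14459 and 0.007 over all genes. In LSK cells 6 of the 30 were called, all of them higher, beside 221 of 14102 genes called higher there (1.57%). The primary granule genes showed the same order in 13 of 13 (median 0.82), and the heme genes the opposite in 16 of 17 (median -0.23). The order was not particular to myeloid lists. It held for 10 of 11 B cell genes (median 0.845), 20 of 23 lymphoid priming genes (0.648), 16 of 17 dendritic cell genes (0.463) and 34 of 37 lysosomal genes (0.249). It held for only 4 of 30 erythroid genes (-0.314) and 7 of 53 genes of G2 and M phase (-0.091).

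These values rest on LSK libraries of which the pair labelled LSK CreER knockout 2 and 3 went against their labelled sex. Without them 0 genes were called, with or without the mouse block, and 29 of the 30 monocyte genes kept the higher LSK effect (median 0.97). With the mice of that pair exchanged in the block, a choice made after seeing the data, 43 genes were called. Deviations of progenitor and LSK libraries from their group means correlated at -0.154 and -0.083 across genes for that pair as labelled and at 0.113 and 0.417 when exchanged, beside 0.171 to 0.472 for the other 6 mice.

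**Figure D5:**
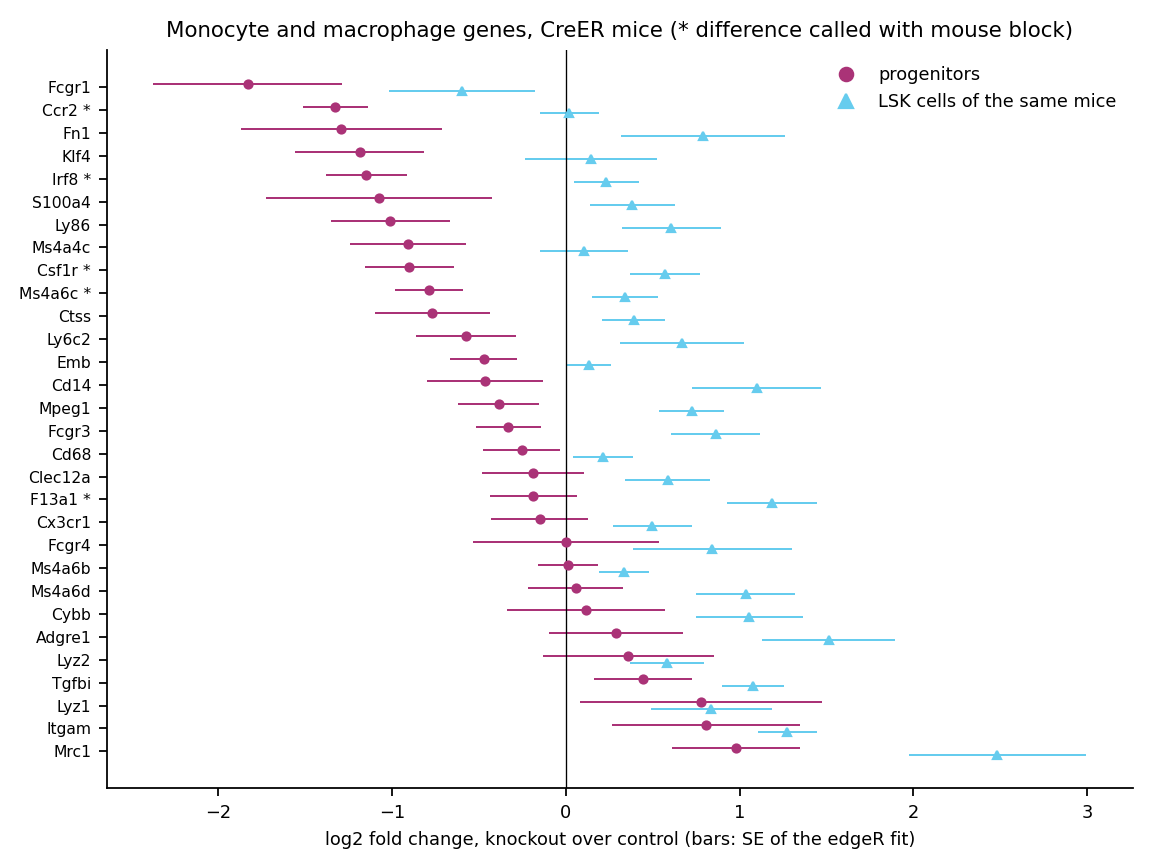
Log2 fold change with SE of 30 monocyte and macrophage genes, in progenitors and in LSK cells of the same CreER mice, ordered by the progenitor value. Each LSK point lies to the right of its progenitor point, and asterisks mark the 5 genes whose difference was called with mouse as a block.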

How the data were processed

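Libraries were made from 50 ng of RNA and read at 80 bp from both ends, per the labels' protocols. The deposited tables hold unnormalised counts of reads for each gene, made by the authors with featureCounts on mm10, per the submitters' processing notes; not given in the sources used here are aligner, annotation and strandedness. Without strand, overlapping and antisense genes cannot be told apart. Symbols were found for 25275 of 27179 Entrez identifiers (RefSeq, GRCm38.p6), and genes without one held 3.26% to 3.694% of counts in the 8 CreER progenitor libraries.

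Counts were fitted with edgeR 4.0.16 in R 4.3.3 (TMM, filterByExpr with minimums of 10 per library and 15 in all libraries, quasi-likelihood test, Benjamini-Hochberg adjustment over all genes, threshold 0.05). Progenitor comparisons used 16 libraries, LSK comparisons 16 and differences between populations 32. The comparison, its genes and the 43 gene lists were chosen with earlier results of these data known. Genes eligible to be named were the HBO1 subunits, the 12 largest rises and 15 largest falls among called genes averaging 1 log2 CPM or more (prior count 2), the 8 of lowest p in each direction, up to 6 called members of each list (or its 2 of lowest p), and the 6 of lowest p in each direction for both differences. Bhlha15, Aifm2 and 1 unnamed gene model, called but outside this rule, and other genes named from the fit of 8 libraries or from the lists were chosen after their values were seen. Knockout and control libraries shared replicate numbers, which did not pair them; progenitor and LSK libraries were paired by mouse. Alternatives were size factors of DESeq2 1.42.0, its Wald test, limma-voom (limma 3.58.1), 2 other filters, sex, replicate or mouse terms, an exon length trend, other library sets, a fold of 1.5, and leaving out each library of the groups compared. The fits were tested on simulated data. Within a population each library came from its own mouse, and counting intervals cover counting error only, since reads carry no molecular identifiers.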

Additional observations from a re-analysis of the deposited data

Results flagged for a closer look

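Over the named genes, 188 groups of 4 libraries were examined and in 13 of them 1 library lay far from the other 3 (by Dixon's ratio of gap to range at the 95% level), where chance alone flags about 1 in 20. Knockout 3 was the high library for Ngp (692 CPM), Camp (194 CPM), Podxl (136 CPM) and Cd93 (138 CPM). Control 3 was the high library for Elane (3350 CPM), Cd93 (261 CPM) and Adam15 (71.3 CPM). Control 2 was high for H2-Aa (11.9 CPM), a class II gene. Knockout 4 was high for Mid1 (8.56 CPM) and Gng11 (3 CPM), knockout 1 for Ing5 (67.6 CPM) and Bcl2 (59.3 CPM), and control 4 held the only control count of Ighg2b (0.0784 CPM).

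The knockout effect differed between Cre lines by the test of the difference itself (log2, Mx1Cre minus CreER) for Ighg2b (-14.14), Map7d3 (-8.29), Zfp970 (-4.73), Gspt2 (-3.24), Ica1 (-3.13), Ppic (-2.75), Gng11 (-2.60) and Fkbp9 (-2.16) on the lower side, and for Robo3 (3.90), Col4a1 (3.50), Pf4 (2.73) and Tuba8 (1.35) on the higher side. The fitted values of Ighg2b and Map7d3 depend on the prior count, since 1 group of each was at or near 0. The effect differed between populations for Tmem119 (1.36, LSK minus progenitors).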

How the results depend on the processing

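The count of 23 called genes in CreER progenitors was within 1.5 times (23 to 25) with size factors of DESeq2, without a filter, with 1 CPM in 4 libraries, with sex and with the replicate number as a block (23). It was 36 with limma-voom, 73 with the exon length trend removed, 158 with the 8 CreER libraries, 183 with the DESeq2 Wald test, 212 with all 32 libraries and 2 against a fold of 1.5, and, in alternatives added after seeing the data, 78 without Mx1Cre control 1 and 150 without Mx1Cre control 1 and knockout 4. Leaving out each of the 8 CreER libraries gave 7 to 27.

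The 41 genes with a difference between Cre lines became 120 with DESeq2 and 19 with limma-voom, 39 with the replicate number as a block, and 25 to 60 when each of the 16 progenitor libraries was left out (25 without CreER control 1 or CreER control 4). The 1 gene with a difference between populations became 13 with DESeq2, 0 without a filter and with limma-voom, 11 with the mouse block, 43 with the mouse block and the pair of LSK libraries exchanged, 0 without that pair with or without the block, and 0 to 4 when each of the 16 CreER libraries was left out (4 without LSK control 3, 3 without progenitor knockout 3, 2 without progenitor control 1, 1 without LSK knockout 1 or progenitor control 4, and 0 without each of the other 11). At an unadjusted p under 0.05, 533 genes passed in edgeR. The Mx1Cre count of 833 became 1264 with DESeq2, and the LSK CreER count of 445 became 889 with DESeq2 and 33 without LSK CreER knockouts 2 and 3. The cause of these changes was not tested.

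Correlations of same-numbered control and knockout libraries were 0.332, -0.036, 0.122 and 0.098, so the replicate numbers share only a number; 2 of the 4 knockouts correlated best with their own number. Of 437 values of the 23 called genes over the alternatives, 0 changed sign and 128 lost the call. Among the other named genes, 80 of 1422 values gained a call and 7 changed sign, each when 1 library was left out. The log2 values over such fits ran from -0.024 (without knockout 2, and -0.006 without control 2) to 0.074 for Ing4, from -0.373 to 0.131 (without control 3) for F13a1, from -0.491 to 0.092 (without control 3) for Mgl2, from -0.513 to 0.078 (without knockout 2, and 0.062 without control 4) for Hoxa6, and from -0.048 (without knockout 3) to 0.086 for Brpf1. A gene at 0 in a library may stand at up to 0.212 to 0.326 CPM (3 counts), so the size of changes from levels under about 1 CPM is poorly resolved at this depth. Rises from such control levels were still called for Mid1, Ighg2b and the gene model 100861837.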

Other observations

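Genes of survival, the cell cycle and stress had no call with 16 libraries. With the 8 CreER libraries alone 3 of them fell, while the cyclin gene Ccne1, given above, rose. Bcl2, which protects cells from apoptosis, held 73.5, 69.9, 75.2 and 82 CPM in controls and 59.3, 44.1, 44.8 and 45.4 in knockouts (adjusted p = 0.0318 in edgeR with 8 libraries and 0.41 with 16). Ccnd1, a cyclin of G1 phase, held 27.3, 32, 35.6 and 41.5 CPM against 23.5, 21.5, 20.6 and 21.2 (adjusted p = 0.0434 and 0.55). Sesn1, a p53 target that restrains growth signalling, held 43.3, 43.7, 40.8 and 41.7 CPM against 33.4, 31.3, 27.7 and 31.5 (adjusted p = 0.0424 and 0.0884). In all 3 genes the groups were separate. The 26 p53 targets had a median log2 fold change of -0.09 and the 13 BCL2 family genes one of -0.02.

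Unlike the Hoxa genes, lists of replication and chromatin genes had medians near that of all genes (-0.005). The 40 origin licensing and replication genes had a median of 0.02, the 18 Polycomb regulators 0.03, the 17 regulators of the MLL and DOT1L group 0.07 and the 9 other histone acetyltransferases 0.08, with 0 called in each. Among the last, Kat6b, a relative in the MYST family, held 19.6, 19.1, 15.9 and 20.3 CPM in controls and 28.6, 22.9, 28.2 and 24.5 in knockouts (0.48 ± 0.26, adjusted p = 0.734), without overlap. Myeloid fate transcription factors were negative in 22 of 25 (median -0.30) and dendritic cell genes in 11 of 14 (median -0.27), including Flt3, the receptor of lymphoid and dendritic progenitors, at -0.83 ± 0.30 (adjusted p = 0.41). Cytosolic ribosomal protein genes were negative in 35 of 40, with a median of -0.14.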
